A study of Mus musculus with 8 samples.

Results

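The 40 genes described here encode the enzymes and carriers that burn fatty acids, together with PPARA, the nuclear receptor that induces many of them, and several of its known targets. They were taken from a fixed list of names, and each was read by the brightest probe set that carries its symbol alone in the platform annotation. Of the 40, 36 were measured in this way, out of 18782 genes on the array. Cpt1b, Acadvl and Acsl3 lie on probe sets that carry a further symbol, and Acsl1 has no probe set under its symbol, so these 4 genes are not analysed here. The samples were distal convoluted tubules (DCT) of mouse kidneys, with 4 TBC1D4-deficient and 4 TBC1D4 wild-type samples and 1 array for each. The mice were male C57/Bl6 aged 8 weeks, and in both groups they carried 1 copy of a PV-EGFP transgene, in which the parvalbumin promoter drives EGFP. Fluorescent tubules were collected by COPAS, a sorter for large particles, so a sorted fragment need not hold DCT cells alone. The labels do not say in which cells TBC1D4 is missing, nor whether each sample came from a separate animal, so every p-value measures the spread between these samples.

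Fatty acids enter a cell through carriers such as CD36, are activated to acyl-CoA, and are passed into mitochondria by the carnitine shuttle. There a cycle of dehydrogenation, hydration, a second oxidation and thiolysis shortens them, and electrons leave through the electron transfer flavoprotein. Peroxisomes shorten very long and dicarboxylic chains by a parallel set of enzymes, several of which are induced by PPARA. In the kidney the proximal tubule is known for its reliance on this pathway, and it is the most plentiful tubule of the cortex, so its markers were followed here alongside the pathway.

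Tbc1d4 itself was 19.3-fold lower in TBC1D4-deficient arrays (2.48 ± 0.21 against 6.75 ± 0.15 on the log2 scale, SD, n = 4 each), as the labels state. DCT markers were bright and level: the thiazide-sensitive cotransporter Slc12a3 averaged 11.49 in both groups, and the summed intensity of 8 DCT markers was 11200 to 11640 in TBC1D4-deficient and 11140 to 11560 in wild-type arrays. Markers of other segments were read too. The summed intensity of 5 thick ascending limb markers was 3812 to 4078 in TBC1D4-deficient and 3902 to 4339 in wild-type arrays. For 6 intercalated cell markers it was 267.9 to 446.8 and 290.6 to 503.9. Proximal tubule markers were not level. A score was made for each array from the endocytic receptor Lrp2 and the phosphate transporter Slc34a1, as the mean of their log2 levels after each was centred on its mean over the 8 arrays. In TBC1D4-deficient replicates 1 to 4 the score was -1.0, 0.31, 0.06 and 0.02, whereas wild-type replicates 1 to 4 had scores of -0.43, -0.25, 0.65 and 0.63. TBC1D4-deficient replicate 1 stood apart at the low end, and the range of 1.66 on the log2 scale is 3.16-fold. A wider list of 19 proximal tubule markers had a summed intensity of 1268 to 3057 in TBC1D4-deficient and 1765 to 4228 in wild-type arrays, and 16 of the 19 followed the score.

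Each gene was therefore described by its slope on this score in a limma fit with genotype as a covariate. A slope of 1 means that the gene moved between arrays as far as the markers did, and a slope of 0 that it did not move with them. A gene was said to follow the score when its slope was above 0 with a Benjamini-Hochberg adjusted p below 0.05 over all tested probe sets. In bulk tissue fewer cells of a type and less RNA per cell cannot be told apart.

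**Figure D1:**
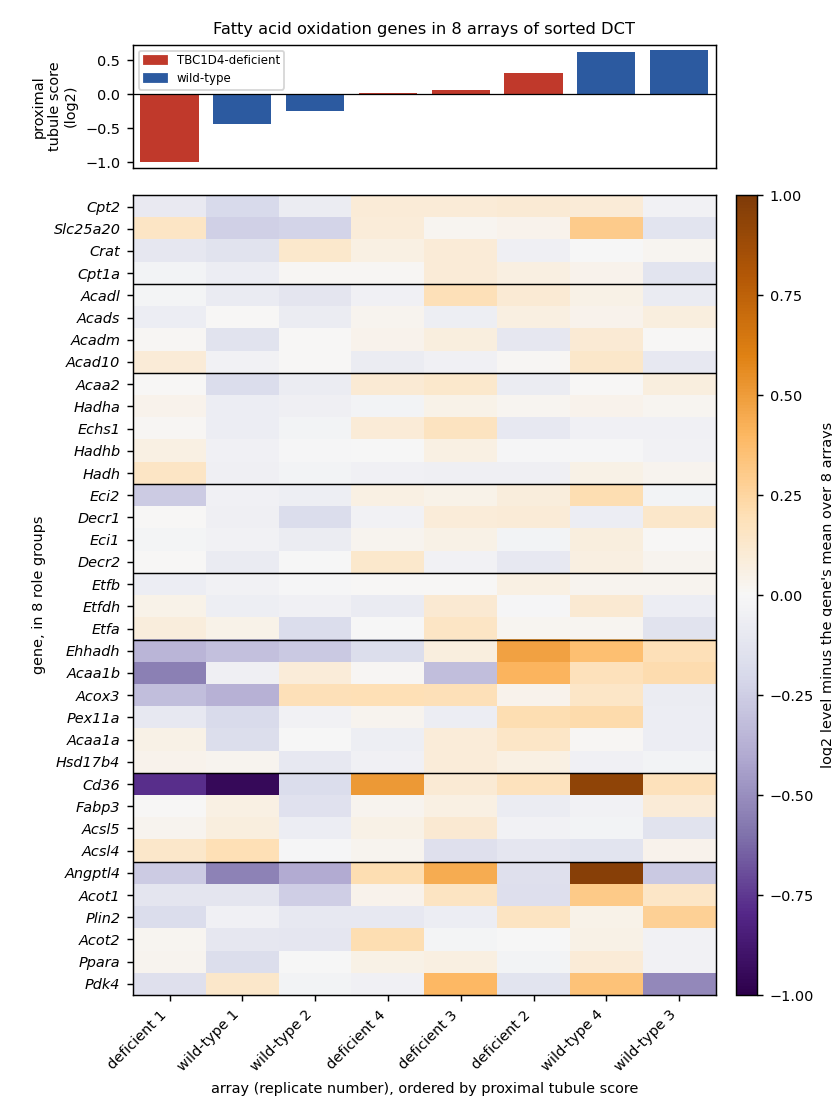
Top, the proximal tubule score of each array as bars on a log2 scale, coloured by genotype. Below, the log2 level of each of the 36 genes in each array minus the gene's mean over the 8 arrays, in 8 role groups. Cd36 and Ehhadh are low on the left, where the score is -1.0 to -0.25, while most mitochondrial enzymes differ little from array to array.

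Of the 36 genes, 2 followed the proximal tubule score, Cd36 and Ehhadh, which is 5.56% of them beside 1.14% of all 23039 probe sets tested and 2.03% of genes above the median level. Both lay close to the threshold (limma adjusted p = 0.0449 each), and the next smallest adjusted p was 0.472, for Acaa1b. No slope among the 36 passed in the negative direction. Without regard to the adjustment, 7 slopes had a p below 0.05, 6 of them positive. The share of all genes below that unadjusted p was not counted, so nothing is read from these 7. For 22 genes (61.1%) the 95% interval of the slope lay inside -0.25 to 0.25, against 50.8% of all genes and 53.2% of genes above the median level, so this share was near the background. The other 12 genes fell in neither class. Over the 36 genes the median slope was 0.0625, and 28 slopes lay above 0, beside a median of -0.0038 and 48.3% above 0 over all genes. The count of 22 dropped to 4 without TBC1D4-deficient replicate 1, the array that extends the range of the score most.

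Cd36, a scavenger receptor that takes up long-chain fatty acids, had the steepest slope of the list. Its log2 level was 4.80, 5.75, 5.68 and 6.09 in TBC1D4-deficient replicates 1 to 4, and 4.63, 5.40, 5.76 and 6.51 in wild-type replicates 1 to 4. The lowest levels stood in wild-type replicate 1 and TBC1D4-deficient replicate 1, which have the lowest scores, and the highest in wild-type replicate 4, so the genotypes overlapped. The levels spanned 3.69-fold, and the slope was 1.01 (95% interval 0.57 to 1.46), which means that Cd36 changed with the score about as much as Lrp2 and Slc34a1 did. It was positive under all 27 alternatives tried, at 0.41 to 1.63, but passed the threshold in only some. It did not pass without TBC1D4-deficient replicate 1 (1.10, limma adjusted p = 0.259), 3 (0.0812) or 4 (0.0713), or without wild-type replicate 1 (0.83, limma adjusted p = 0.214), 2 (0.0543) or 4 (0.0743). Over these and the other alternatives with a test the adjusted p ran from 0.0106 to 0.887. Cd36 is known in capillary endothelium too, and the summed intensity of 12 endothelial markers was 141 to 177.6 in TBC1D4-deficient and 190.9 to 205.7 in wild-type arrays. These markers also tended to rise with the score: 11 of the 12 had slopes above 0, and 1 followed it. With the endothelial mean in the fit the slope of Cd36 on the proximal tubule score was 1.63 (limma adjusted p = 0.132). Its standard error went from 0.20 to 0.34, so this fit separates the 2 sources poorly. The summed intensity of 6 macrophage markers was 50.63 to 72.07 in TBC1D4-deficient and 52.36 to 65.09 in wild-type arrays. All 4 measured adipocyte markers lay below the median of all probe sets.

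The promoter of Cd36 is one of 5 in the list that hold a match to the element bound by PPARA with its partner RXR, a direct repeat of the core AGGTCA with 1 base between the copies. The 250 bases before the RefSeq start of Cd36 are shown because Cd36 is both the steepest gene of the list and a known PPARA target. They lie at chr5:17835897-17836146 of GRCm38.p6, on the minus strand, and capitals mark the match, which runs on the opposite strand.
Cd36 promoter: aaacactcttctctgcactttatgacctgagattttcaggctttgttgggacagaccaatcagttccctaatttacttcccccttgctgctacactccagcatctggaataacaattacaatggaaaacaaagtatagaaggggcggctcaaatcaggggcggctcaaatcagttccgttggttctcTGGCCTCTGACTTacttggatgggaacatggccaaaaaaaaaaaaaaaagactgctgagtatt

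RefSeq windows of 300 bases (250 before to 50 after the start, GRCm38.p6) were found for 34 of the 40 genes. With up to 2 of the 12 fixed letters allowed to differ, on both strands, 5 of the 34 genes (14.7%) held a match, beside 4.4% of 27025 genes and 3.86% of 32851 windows in the table. The 5 matches are set side by side, each in the orientation of the motif, to show how they differ. Capitals mark letters equal to the motif and small letters those that differ, or the free base between the copies. Those of Cd36, Echs1, Etfa and Plin2 begin 63, 83, 77 and 225 bases before the start on chromosomes 5, 7, 9 and 4, and that of Slc25a20 begins 7 bases after it on chromosome 9.
Cd36: AaGTCAgAGGcCA
Echs1: AGGTCAcgGGTCc
Etfa: AGGgCAaAGGTaA
Plin2: AGGTCAggGGTCc
Slc25a20: AGGTgAaAGGTCg

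Each of the 5 has 2 letters that differ. Their slopes on the score ranged from -0.02 for Etfa and 0.01 for Echs1, through 0.11 for Slc25a20 and 0.21 for Plin2, to 1.01 for Cd36. A match to these letters is a description of the window and no evidence of binding.

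Ehhadh, the bifunctional hydratase and dehydrogenase of peroxisomes, was the other gene that followed the score. Its log2 level was 6.55, 7.39, 6.98 and 6.74 in TBC1D4-deficient replicates 1 to 4, and 6.60, 6.64, 7.10 and 7.27 in wild-type replicates 1 to 4. The 3 arrays with the lowest scores held the 3 lowest levels, TBC1D4-deficient replicate 2 held the highest, and the genotypes overlapped. The slope was 0.54 (0.30 to 0.77), and it was positive under all 27 alternatives, at 0.43 to 0.87. As with Cd36 the threshold was not held: without TBC1D4-deficient replicate 1 the slope was 0.64 (limma adjusted p = 0.142), and the adjusted p over the alternatives with a test ran from 0.00541 to 0.766. It was also lost without TBC1D4-deficient replicate 2 (0.0855) or 3 (0.0837) and without each wild-type replicate in turn (limma adjusted p = 0.189, 0.113, 0.115 and 0.124 for replicates 1 to 4).

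Among the other 4 peroxisomal enzymes and the peroxisome division factor Pex11a, slopes ran from 0.00 to 0.39 and none passed. Acaa1b, a peroxisomal thiolase, had a slope of 0.39 (0.10 to 0.67; limma adjusted p = 0.472), with log2 levels of 3.63 in TBC1D4-deficient replicate 1 and 3.86 to 4.59 in the other arrays. Its close paralog Acaa1a had a slope of 0.05 (-0.11 to 0.21). Both genes lie on chromosome 9, and probes for paralogs this alike may pick up both transcripts, so the difference between them is uncertain and was not tested. Acox3, an oxidase of branched chains, stood at 0.27 (-0.01 to 0.54) and Pex11a at 0.18 (0.00 to 0.37). The D-bifunctional enzyme Hsd17b4 stood at 0.00 (-0.14 to 0.14), so its interval lay below that of Ehhadh, its counterpart in the same organelle, though the difference itself was not tested.

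**Figure D2:**
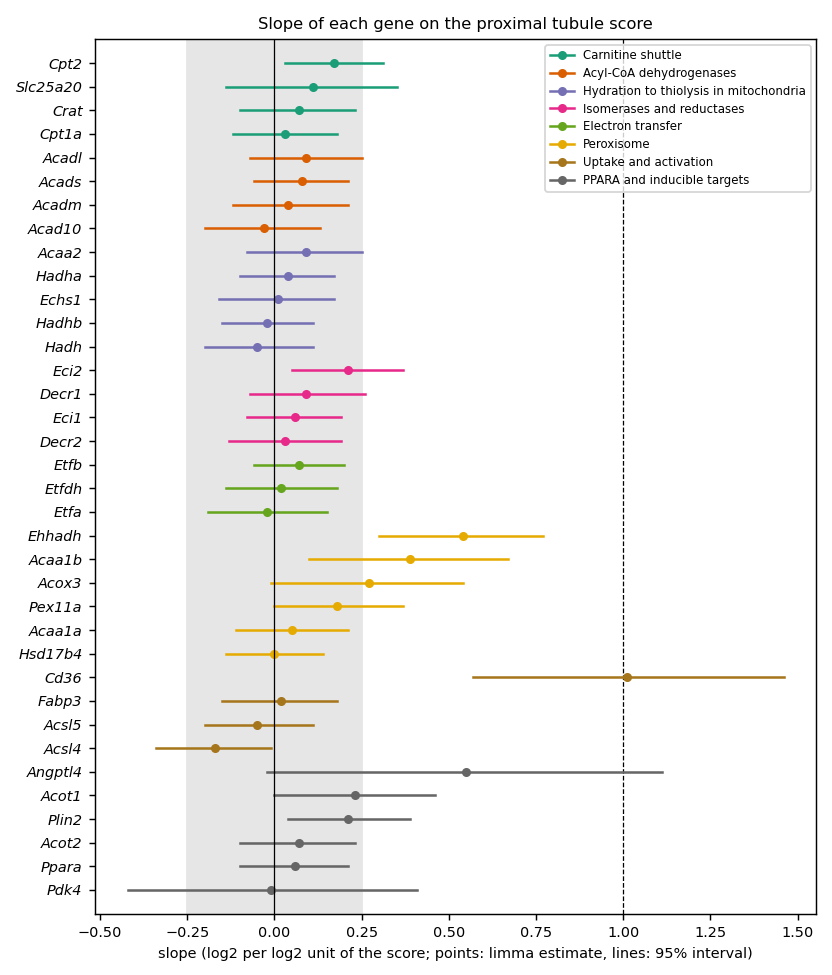
Slope of the log2 level of each gene on the proximal tubule score, with 95% intervals from the limma fit, coloured by role. The grey band spans -0.25 to 0.25 and the dashed line marks 1. Cd36 (1.01) and Ehhadh (0.54) stand clear of the band, and all 12 mitochondrial dehydrogenases, hydration to thiolysis enzymes and electron transfer genes lie inside it.

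In the mitochondrial spiral no gene followed the score. All 4 measured acyl-CoA dehydrogenases, all 5 genes from hydration to thiolysis and all 3 electron transfer genes had intervals inside -0.25 to 0.25, with median slopes of 0.0608, 0.00613 and 0.0184. Such intervals were also found for 53.2% of genes above the median level, and without TBC1D4-deficient replicate 1 at most 4 of these 12 could stay inside, since 4 of all 36 did. Hadh, the short-chain hydroxyacyl-CoA dehydrogenase, was at 10.68, 10.48, 10.48 and 10.49 in TBC1D4-deficient replicates 1 to 4 and at 10.48, 10.50, 10.56 and 10.58 in wild-type replicates 1 to 4. Its highest level thus stood in the array with the least proximal tubule signal, and its slope was -0.05 (-0.20 to 0.11). Acadm, the medium-chain dehydrogenase, had levels of 9.50 to 9.74 and a slope of 0.04 (-0.12 to 0.21). Acadl, Acads and Acad10 had slopes of 0.09, 0.08 and -0.03. Acadl and Acaa2, the mitochondrial thiolase (0.09, -0.08 to 0.25), were the genes just inside the band. Decr1, a dienoyl-CoA reductase (0.09, -0.07 to 0.26), was the gene just outside it. Echs1, the enoyl-CoA hydratase, was at 0.01, and Etfa, Etfb and Etfdh, which carry electrons to ubiquinone, were at -0.02, 0.07 and 0.02.

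Hadha and Hadhb encode the 2 subunits of the mitochondrial trifunctional protein and had the narrowest ranges of the list. Hadhb spanned 1.07-fold over the 8 arrays and Hadha 1.08-fold. Their slopes were -0.02 (-0.15 to 0.11) and 0.04 (-0.10 to 0.17). The genes lie head to head on chromosome 5, and in RefSeq their starts are 273 bases apart. Most of the sequence between the starts is shown because the genes run away from it in opposite directions. The 250 bases before the start of Hadha, at chr5:30154981-30155230 of GRCm38.p6 on the minus strand, end short of the start of Hadhb and hold no match to the PPARA element.
Hadha promoter: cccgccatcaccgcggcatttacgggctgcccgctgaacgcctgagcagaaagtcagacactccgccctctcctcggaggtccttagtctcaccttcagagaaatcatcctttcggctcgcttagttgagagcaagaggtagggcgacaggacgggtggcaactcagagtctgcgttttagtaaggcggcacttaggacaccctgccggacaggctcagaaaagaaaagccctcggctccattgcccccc

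In the carnitine shuttle, Cpt1a, the outer-membrane transferase that sets the rate of entry, had log2 levels of 9.78 to 10.00 and a slope of 0.03 (-0.12 to 0.18). Crat, carnitine acetyltransferase, stood at 0.07 (-0.10 to 0.23). Cpt2, the inner-membrane transferase, had a slope of 0.17 (0.03 to 0.31), which did not pass (limma adjusted p = 0.554). The carrier Slc25a20 was at 0.11 (-0.14 to 0.35). None of these 4 intervals reached 1, the slope of a gene that moves as the markers do. Of the isomerases and reductases, Eci1 and Decr2 had intervals inside the band (0.06 and 0.03), while Eci2 stood at 0.21 (0.05 to 0.37; limma adjusted p = 0.489).

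Uptake and activation genes other than Cd36 did not rise with the score. Fabp3, a cytosolic fatty acid binding protein, was at 0.02 (-0.15 to 0.18), and its other probe set was at 0.00 (-0.15 to 0.16). The acyl-CoA synthetases Acsl5 and Acsl4 were at -0.05 (-0.20 to 0.11) and -0.17 (-0.34 to -0.01; limma adjusted p = 0.705). Acsl4 held 8.62 and 8.56 in the arrays with the lowest scores among wild-type and TBC1D4-deficient samples, and 8.27 to 8.46 in the others.

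Ppara had log2 levels of 5.69, 5.64, 5.73 and 5.72 in TBC1D4-deficient replicates 1 to 4 and of 5.50, 5.66, 5.63 and 5.76 in wild-type replicates 1 to 4. Wild-type replicates 1 and 4 held the lowest and highest levels, a span of 1.20-fold, and the slope was 0.06 (-0.10 to 0.21). Its inducible targets varied more. Angptl4, a secreted inhibitor of lipoprotein lipase, had levels of 3.35, 3.46, 4.05 and 3.82 in TBC1D4-deficient and 3.07, 3.22, 3.34 and 4.58 in wild-type replicates 1 to 4. Wild-type replicate 4 was highest and the span was 2.86-fold, with a slope of 0.55 (-0.02 to 1.11; limma adjusted p = 0.756). Angptl4 was faint, at a mean of 3.61 beside the median of 3.13 for all probe sets. In wild-type replicate 1 it lay below that median. Pdk4, the kinase that shuts pyruvate dehydrogenase, had levels of 8.34, 8.37, 8.89 and 8.45 in TBC1D4-deficient and 8.63, 8.47, 7.98 and 8.84 in wild-type replicates 1 to 4. It was lowest in wild-type replicate 3, the array with the highest score, and its slope was -0.01 (-0.42 to 0.41).

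Plin2, which coats lipid droplets, had a slope of 0.21 (0.04 to 0.39; limma adjusted p = 0.571). The acyl-CoA thioesterases Acot1 and Acot2 stood at 0.23 (0.00 to 0.46) and 0.07 (-0.10 to 0.23). Acot1, at a mean of 3.03, was the only gene of the 36 below the median of all probe sets (3.13), and the table holds no detection call.

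**Figure D3:**
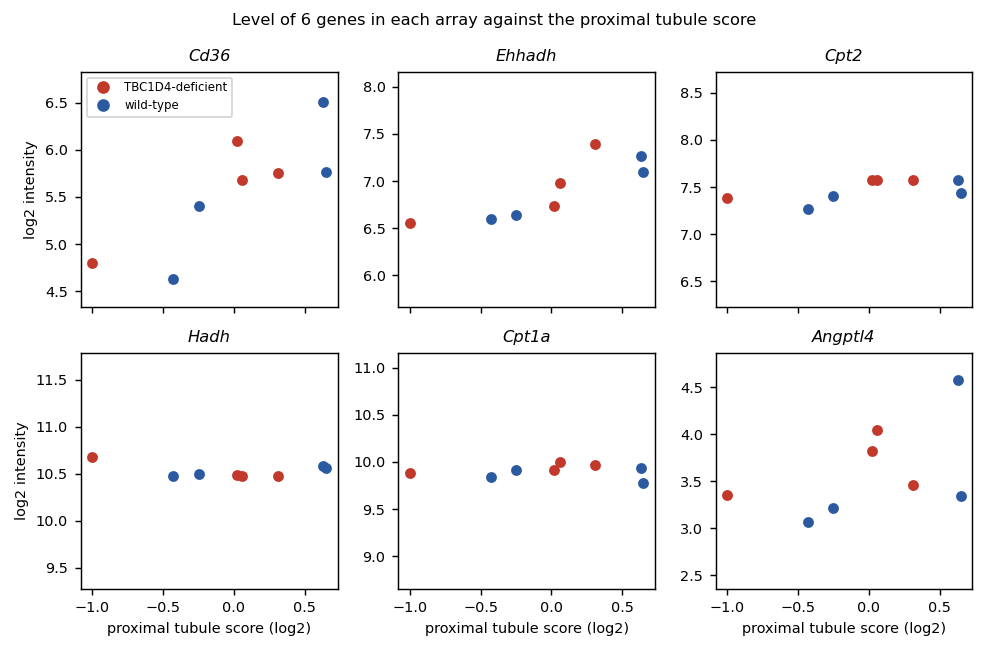
Log2 intensity of 6 genes in each of the 8 arrays against the proximal tubule score, 1 point per array, coloured by genotype, with vertical axes of equal span. Cd36 and Ehhadh climb from left to right, Hadh and Cpt1a stay within narrow ranges (10.48 to 10.68 and 9.78 to 10.00), and Angptl4 scatters with 1 high wild-type array (4.58).

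The comparison between genotypes asks which of these genes change in the DCT when TBC1D4, the Rab GTPase-activating protein that insulin signalling inhibits, is missing. None of the 36 passed in limma, in either direction, and the adjusted p was 0.9999 for the lowest of them. Over all 23039 probe sets 0% were called higher and 0.00434% lower, the latter being Tbc1d4 alone. No gene of the 36 reached an unadjusted p below 0.05, the smallest being 0.118. For 33 of the 36 the 95% interval stayed within 1.5-fold either way, the exceptions being Cd36, Acaa1b and Angptl4, beside 97.5% of all genes.

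Most of the 36 differences were small and above 0. TBC1D4-deficient arrays were higher for 28 genes and lower for 8, with a median log2 difference of 0.0336, beside 49.6% higher and a median of -0.000742 over all genes. The description numbers 5 to 8 and 9 to 12, whose meaning the labels do not give, hold 2 arrays of each genotype apiece. The identifier numbers of the samples, whose meaning is not given either, fall into a low and a high range that are not balanced. Wild-type replicate 2 is the only wild-type array in the low range, and TBC1D4-deficient replicate 2 the only deficient array in the high one. Genotype is thus partly confounded with the identifier range. With that range as a covariate the median was 0.0357 and none of the 36 passed in limma. Within 5 to 8, 28 of 36 were higher and the median was 0.0744. Within 9 to 12, 19 of 36 were higher and the median was 0.00636. The count was 21 without TBC1D4-deficient replicate 3 (median 0.0126) and 20 without wild-type replicate 1 (median 0.0105), so these arrays carry much of the balance. Wild-type replicate 1 had 7 of the 36 genes above their own mean and wild-type replicate 2 had 6, while wild-type replicate 4 had 28 and TBC1D4-deficient replicate 3 had 27. Mean score was -0.15 in TBC1D4-deficient and 0.15 in wild-type arrays, a gap that leans on TBC1D4-deficient replicate 1 (-1.0). With the score as a covariate 31 of 36 were higher, the median was 0.055, none passed after adjustment, and 1 gene, Cpt2 (0.16), had an unadjusted p below 0.05 in limma.

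By role, none of whose genes passed, all 5 genes from hydration to thiolysis and all 3 electron transfer genes lay above 0, with median log2 differences of 0.0497 and 0.0301. Of these, Hadh and Etfb rounded to 0.00, and with the score as a covariate Hadh was at -0.01. Without the covariate, 3 of 4 genes of the carnitine shuttle lay above 0 (median 0.089), and of the peroxisomal genes 5 of 6 (0.0438). The counts were 4 of 6 for Ppara and the inducible targets (0.0437), 3 of 4 for isomerases and reductases (0.0104) and 3 of 4 for uptake and activation (0.00837). The acyl-CoA dehydrogenases were even, at 2 of 4 (0.00416). Of the 2 genes that followed the score, Cd36 differed by 0.00 (-0.82 to 0.83) and Ehhadh by 0.01 (-0.43 to 0.45), and the interval of Cd36 was the widest of the list. Mean score itself was lower in TBC1D4-deficient arrays, where replicate 1 had -1.0 and replicates 2 to 4 had 0.31, 0.06 and 0.02. The scores of replicates 2 to 4 lay inside the wild-type range of -0.43 to 0.65. Fits with the score as a covariate were not repeated without replicate 1. With the score as a covariate the differences were 0.31 for Cd36 and 0.17 for Ehhadh (limma unadjusted p = 0.164 and 0.147).

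The 6 genes with the smallest unadjusted p all lay above 0, and none passed (limma adjusted p = 0.9999). Acaa1a was at 4.83, 4.92, 4.87 and 4.72 in TBC1D4-deficient and 4.61, 4.77, 4.71 and 4.79 in wild-type replicates 1 to 4. The groups overlapped through TBC1D4-deficient replicate 4, and the log2 difference was 0.12 (95% interval -0.04 to 0.27). Etfa was at 7.51, 7.45, 7.58 and 7.42 against 7.47, 7.25, 7.29 and 7.45. Wild-type replicates 2 and 3 were its lowest arrays, and the difference was 0.12 (-0.04 to 0.28), with 0.23 within 5 to 8 and 0.02 within 9 to 12. Acadl, the long-chain dehydrogenase, was at 7.58, 7.71, 7.79 and 7.56 against 7.52, 7.48, 7.52 and 7.65. Its difference was 0.12 (-0.04 to 0.27), with overlap through wild-type replicate 4, and was 0.07 without TBC1D4-deficient replicate 3.

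Acot2, the mitochondrial thioesterase, was at 8.50, 8.48, 8.46 and 8.69 in TBC1D4-deficient and 8.38, 8.37, 8.45 and 8.53 in wild-type replicates 1 to 4, a difference of 0.10 (-0.05 to 0.26) that was 0.05 without TBC1D4-deficient replicate 4. Slc25a20 was at 6.69, 6.58, 6.56 and 6.63 against 6.30, 6.32, 6.41 and 6.84. Its 3 lowest arrays were all wild-type, but wild-type replicate 4 was the highest of the 8, and the difference was 0.15 (-0.10 to 0.40). Without that array it was 0.27, which did not pass either (limma adjusted p = 1). Cpt2 was at 7.38, 7.58, 7.57 and 7.57 against 7.27, 7.40, 7.44 and 7.57, a difference of 0.10 (-0.07 to 0.28) that was 0.06 without wild-type replicate 1 and 0.16 without wild-type replicate 4. For Ppara it was 0.05 (-0.10 to 0.20), with 0.01 and 0.10 when these same arrays were left out.

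The groups of arrays did not overlap for 1 gene of the 36 (2.78%), beside 1.85% of all probe sets, a share near the background. This was Hadhb, at 8.70 ± 0.04 and 8.65 ± 0.01 (SD, n = 4 each) in TBC1D4-deficient and wild-type samples, which gave a log2 difference of 0.05 (-0.07 to 0.17). The other probe set of Hadhb gave 0.06 (-0.07 to 0.18), and overlap of the groups was not examined there. Among the targets, Angptl4 and Pdk4 moved opposite ways in the number sets, with differences of 0.66 and 0.45 within 5 to 8 and of -0.42 and -0.38 within 9 to 12. The test of that change in difference did not pass for either gene (limma interaction adjusted p = 0.999).

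**Figure D4:**
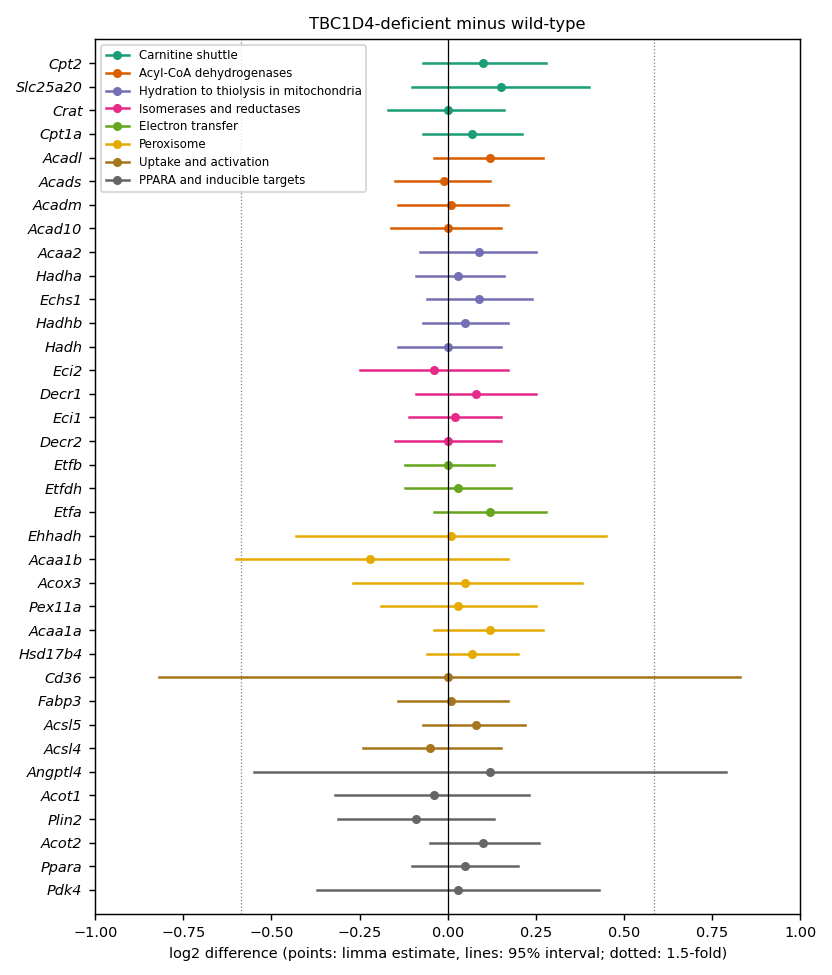
Log2 difference of each gene, TBC1D4-deficient minus wild-type, with 95% intervals from the limma fit, 4 arrays per group. Dotted lines mark 1.5-fold, and the intervals of Cd36, Acaa1b and Angptl4 cross them while the other 33 stay inside.

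The rest of the pathway was read from 4 further lists of 101 genes, of which 87 were measured. By genotype 0 of the 87 passed in limma, and 38 were higher and 49 lower in TBC1D4-deficient arrays (median -0.0109). An unadjusted p below 0.05 was found for 3, and the share of all genes below it was not counted. The 3 were Pxmp2, a peroxisomal membrane channel (0.37, 0.19 to 0.55), Bdh1, a ketone body dehydrogenase (-0.19, -0.32 to -0.06), and the fatty acid binding protein Fabp4 (-0.16, -0.32 to -0.01), which was dim at a mean of 2.81. Of the regulators, Rxrg had the smallest p, at -0.15 (-0.35 to 0.04), and was dim at a mean of 1.92. Prkaa2, a catalytic subunit of AMPK, stood at -0.12 (-0.29 to 0.04).

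On the score, 10 of the 87 followed, against the 1.14% of all probe sets given above. Intervals inside the band were found for 40 of the 87, against 50.8% of all genes, a share not above the background. Among 25 other PPARA targets and ketone body genes 5 followed: the transporter Slc27a2 (0.85, 0.63 to 1.07; limma adjusted p = 0.0014), the pantetheinase Vnn1 (1.43, 1.05 to 1.81), the fatty acid hydroxylase Cyp4a31 (1.76, 1.23 to 2.28), Gpd1 (0.55) and the glycerol channel Aqp7 (0.40), which was dim at a mean of 2.78. Of 19 further genes of mitochondrial oxidation and activation 3 followed. They were the medium-chain synthetases Acsm2 (1.09, 0.87 to 1.31) and Acsm5 (0.98, 0.71 to 1.25) and the carnitine transporter Slc22a5 (0.37, 0.24 to 0.50). Of 21 further peroxisomal genes 1 followed, Acox2, an oxidase of bile acid precursors and branched chains (0.50, 0.32 to 0.69). Of 22 regulators 1 followed, Hnf4a, a nuclear receptor of proximal tubule and liver (1.16, 0.85 to 1.47). Cyp4a31 has close relatives whose transcripts its probe set may share. The count of 10 dropped to 6 without wild-type replicate 1 or 3, and was 8 when only probe sets above the median level were tested. Ppard, the PPAR of broad expression, was at 0.12 (-0.07 to 0.31), and Pparg, at a mean of 1.99, was below the median of all probe sets.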

How the data were processed

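The deposited table holds linear intensities of 28371 probe sets, 1 column per array, made with Affymetrix Power Tools per the submitters' processing notes. How probes were summarised and arrays normalized, and the tool's version, are not stated by any label or header. Column medians were 8.41 to 8.77 in the arrays with description numbers 9 to 12 and 8.93 to 9.03 in those with 5 to 8. The values were taken as already on a common scale, and a shift shared by most genes could be hidden. Per the labels, labelled cDNA came from 100 ng of RNA. Here log2 was taken, with no pseudocount, filter or further normalization. Fits used limma 3.58.1 in R 4.3.3 (lmFit, eBayes, 2-sided) over 23039 probe sets with at least 1 symbol, p-values adjusted by Benjamini-Hochberg, and calls made at 0.05. Genotype was fitted alone, and the slope on the proximal tubule score with genotype as a covariate. Intervals are 95%. A gene is read by its brightest probe set with 1 symbol. The table has no detection call, and 4 arrays per group limit the precision. Scripts were tested on simulated data with known answers.

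The members and lists were chosen with earlier results of these data known. All listed genes may be named. Values in every array are given for genes that follow the score, the 6 with the smallest p by genotype, and Ppara; Hadh, Angptl4 and Pdk4 were added after their values were seen. Of each further list up to 4 genes with the smallest p are named, and Aqp7 was named after its values were seen. The alternatives tried were a filter on level, wider or narrower choices of probe sets, quantile or median scaling, other eBayes settings, array weights, blocks and covariates from the labels, other scores, and leaving out arrays.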

Additional observations from a re-analysis of the deposited data

Results flagged for a closer look

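A total of 5 values stood far from the other 3 arrays of their genotype, out of 72 sets of 4 arrays examined (36 genes in 2 genotypes). Chance flags about 1 in 20 such sets. TBC1D4-deficient replicate 1, the array with the lowest proximal tubule score (-1.0), gave 3 of them. Cpt2 was at 7.38 there and at 7.57 to 7.58 in the other TBC1D4-deficient arrays. Hadh was at 10.68 against 10.48 to 10.49. Eci2 was at 5.19 against 5.50 to 5.54. In wild-type replicate 4, whose score was 0.63, Eci2 was at 5.66 against 5.40 to 5.43 in the other wild-type arrays. Acot2 was at 8.69 in TBC1D4-deficient replicate 4 against 8.46 to 8.50. The part of the score in these values was not tested.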

How the results depend on the processing

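By genotype, 0 of the 36 genes and 0 of the 87 further pathway genes passed under all 22 alternatives, and the median difference stayed above 0, at 0.00636 to 0.0744. On the proximal tubule score, 2 genes passed with the settings used. The count was 1 after quantile normalization, with trend and robust in eBayes, with the number set or the identifier range as a covariate, and with the score from Lrp2 alone, Slc34a1 alone or the wider list. With Lrp2 alone the gene was Ehhadh, and Cd36 did not pass (limma adjusted p = 0.139). With Slc34a1 alone or the wider list it was Cd36, and Ehhadh did not pass (limma adjusted p = 0.104 and 0.144). It was 0 over all probe sets of the table, without the genotype term, with the endothelial mean as a covariate and without the 2 arrays farthest from the median score (TBC1D4-deficient replicate 1 and wild-type replicate 3). Leaving out 1 array gave 0 to 1. The genes inside the band numbered 4 to 21 when 1 array was left out, and 0 with the endothelial mean or without those 2 arrays. The further pathway genes that followed numbered 6 to 9 when 1 array was left out, 4 with the endothelial mean and 1 without the 2 arrays, where the median slope of the 36 was 0.122.

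The replicate numbers of the titles gave no clear sign of pairing the samples. Deviations of same-numbered arrays correlated at 0.402, -0.189, 0.0391 and 0.0117, and 1 of 4 TBC1D4-deficient arrays, replicate 1, correlated best with its own number. With 4 arrays per group these values cannot settle whether samples were paired. With the replicate block, 0 of the 36 followed, 0 lay inside the band, and 3 further genes followed. The slope of Ppara turned to -0.08 with the block and to -0.01 within TBC1D4-deficient arrays. Causes of these changes were not tested. Where the signal is near background, as for Acot1, a difference can be understated.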
